A study of Schizosaccharomyces pombe with 6 samples.

Results

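SPBC1271.07c, SPCC70.08c, SPAC3G6.05 and SPAC227.17c are 4 protein-coding genes of the fission yeast Schizosaccharomyces pombe. Their signal was lower in cells without Cid14 than in wild type. They are 4 of the 5483 annotated features that each array reports. SPBC1271.07c and SPCC70.08c were selected on their large falls in the cid14delta strain, and SPAC3G6.05 and SPAC227.17c were taken for comparison. All 4 were chosen by the log2 differences between the strains on these same 6 arrays, so those differences are given below as a description, without a test. No threshold was stated for a large fall. The table that names the features gives none of the 4 a gene symbol, and no function is assigned to them here.

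Cid14, a poly(A) polymerase of the noncanonical kind, and Air1, a protein with zinc knuckles, work in TRAMP, a nuclear complex that adds short adenosine tails to aberrant, antisense and other unwanted RNAs so that the exosome, a 3′ to 5′ exonuclease complex, can degrade them. In fission yeast Cid14 is also known for its part in keeping heterochromatic transcripts low.

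Total RNA was profiled on Affymetrix tiling arrays from a cid14delta strain (SPB101), an air1delta strain (SPB103) and the wild-type parent (SPB76), with 2 biological replicates of each strain and 1 array per replicate. The medium for all cultures was YES, a rich yeast extract broth, the temperature was 30 °C and cells were taken at an optical density of 0.5. The labels give 1 strain number per genotype, so a second clone of either deletion was not analysed here. The labelled target was double-stranded, so signal from the 2 strands of a locus cannot be told apart, and in RNA of a whole culture less RNA per cell cannot be told apart from fewer cells that express the gene. Array identifiers in the labels place cid14delta and wild type in 1 array series and air1delta in another. Array series and strain therefore cannot be told apart where air1delta is compared.

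The deleted genes matched the strain labels. On the log2 scale of the deposited table cid14 (SPAC12G12.13c) read 3.91 and 3.63 in cid14delta, 8.996 and 8.95 in air1delta, and 8.92 and 8.84 in wild type. The gene air1 (SPBP35G2.08c) read 10.46 and 10.64 in cid14delta, 4.42 and 4.90 in air1delta, and 10.49 and 10.40 in wild type. Array medians lay between 9.21 and 9.29. Over all features the median difference was 0.03 in cid14delta minus wild type, 0.03 in air1delta minus wild type and -0.02 in cid14delta minus air1delta, with a median standard error of 0.08. The number of arrays limits the precision.

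SPBC1271.07c, on chromosome II, had the tighter cid14delta replicates of the 2 genes chosen for large falls. Its log2 values were 7.58 and 7.53 in cid14delta, 9.15 and 9.27 in air1delta, and 9.44 and 9.77 in wild type. The 2 cid14delta arrays stood far below the other 4, and the 2 air1delta arrays lay just below the 2 wild-type arrays. The difference of cid14delta minus wild type was -2.06 ± 0.12 (log2 difference ± standard error of the model, n = 2 arrays per strain, as for all differences below), which is a 4.16-fold lower signal and the fifth lowest of all features in rank (5 of 5483). Air1delta minus wild type was -0.40 ± 0.12, a 1.32-fold lower signal, and it was -0.23 without wild type replicate 2. The nearest air1delta and wild-type arrays were 0.17 apart, less than the 0.33 between the 2 wild-type arrays. Cid14delta minus air1delta was -1.66 ± 0.12, a 3.15-fold lower signal, and here the nearest arrays were 1.57 apart while replicates within either mutant differed by at most 0.12.

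SPCC70.08c, on chromosome III, had the lowest cid14delta minus wild type difference of the 4 genes and the widest residual spread. Its log2 values were 7.97 and 7.41 in cid14delta, 9.26 and 9.13 in air1delta, and 9.42 and 10.46 in wild type. Both cid14delta arrays were again below all others, but wild type replicate 2 stood 1.04 above wild type replicate 1, a 2.06-fold gap within 1 strain. Of all features 99.2% had a smaller gap between the wild-type arrays, and 98.5% had a smaller gap than its 0.56 between the cid14delta arrays. Cid14delta minus wild type was -2.25 ± 0.36, rank 4 from the lowest. It was -1.73 without wild type replicate 2 and -2.77 without wild type replicate 1. Air1delta minus wild type was -0.75 ± 0.36, and its size depended on 1 wild-type array: it was -0.23 without wild type replicate 2 and -1.27 without wild type replicate 1. Cid14delta minus air1delta was -1.50 ± 0.36, with 1.16 between the nearest arrays. That standard error pools all 6 arrays and so carries the wild-type gap, and in the 4 mutant arrays alone it was 0.19.

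SPAC3G6.05, on chromosome I, was lower in both mutants than in wild type. Its log2 values were 10.87 and 10.74 in cid14delta, 11.28 and 11.28 in air1delta, and 11.99 and 12.40 in wild type. The strains did not overlap, and here the air1delta arrays fell between the others rather than beside the wild type. Cid14delta minus wild type was -1.39 ± 0.14 (2.62-fold lower, rank 10 from the lowest) and air1delta minus wild type was -0.92 ± 0.14 (1.89-fold lower, rank 24). Cid14delta minus air1delta was -0.47 ± 0.14, at rank 277 of all features. Relative to wild type the gene kept 38.1% of its signal in cid14delta and 52.96% in air1delta, so of the 4 genes it had the least contrast between the mutants.

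SPAC227.17c, also on chromosome I, had the smallest fall of the 4 in cid14delta. Its log2 values were 7.61 and 8.11 in cid14delta, 8.64 and 8.90 in air1delta, and 9.09 and 9.002 in wild type. The wild-type arrays agreed to 0.09, and the 2 cid14delta arrays differed by 0.50, a gap larger than that of 97.9% of features in that strain. Cid14delta minus wild type was -1.19 ± 0.18 (2.27-fold lower, rank 14 from the lowest), with 0.89 between the nearest arrays. Air1delta minus wild type was -0.28 ± 0.18, with 0.10 between the nearest arrays, less than the 0.26 between the air1delta replicates, and it was -0.15 without air1delta replicate 1. Cid14delta minus air1delta was -0.91 ± 0.18.

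**Figure D1:**
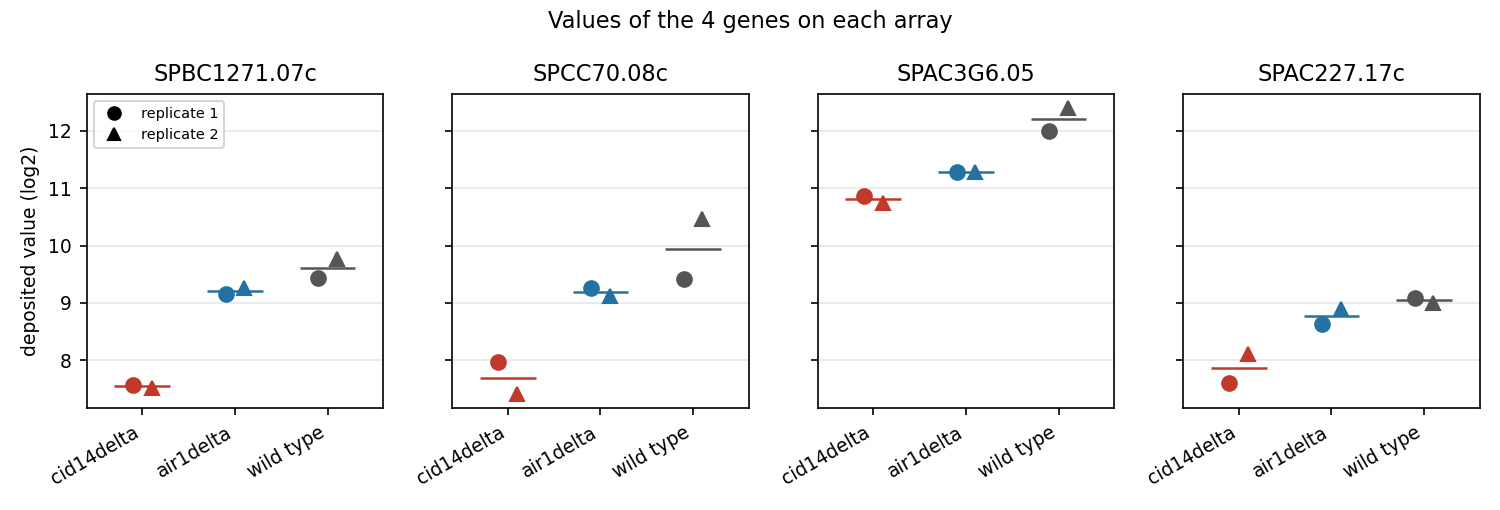
Deposited log2 value (vertical axis) of each of the 4 genes on each array, by strain; circles are replicate 1, triangles replicate 2 and bars the mean of the 2 arrays of a strain. In all 4 panels both cid14delta arrays lie lowest and both wild-type arrays highest, and the wild-type arrays of SPCC70.08c are 1.04 apart.

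All 4 genes had the same order of strains, cid14delta lowest, air1delta next and wild type highest, with no overlap between arrays of neighbouring strains. Of all features 4.12% had that order without overlap. That order already fixes that all 4 were lower without overlap in each single comparison. Of all features 27.7% were so in cid14delta minus wild type, 29.7% in air1delta minus wild type and 36.3% in cid14delta minus air1delta. The genes were chosen by these comparisons, so the shares are background only. For SPBC1271.07c, SPCC70.08c and SPAC227.17c the nearest air1delta and wild-type arrays were closer together than the replicates of 1 of these strains. For SPAC3G6.05 they were further apart than the replicates of either strain. Expressed as signal relative to wild type, cid14delta kept 24.1% for SPBC1271.07c, 21.0% for SPCC70.08c, 38.1% for SPAC3G6.05 and 43.96% for SPAC227.17c. Air1delta kept 75.9%, 59.5%, 52.96% and 82.5% for the same genes in that order. Against air1delta, cid14delta had 31.7% of the signal for SPBC1271.07c, 35.3% for SPCC70.08c, 72.0% for SPAC3G6.05 and 53.3% for SPAC227.17c.

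**Figure D2:**
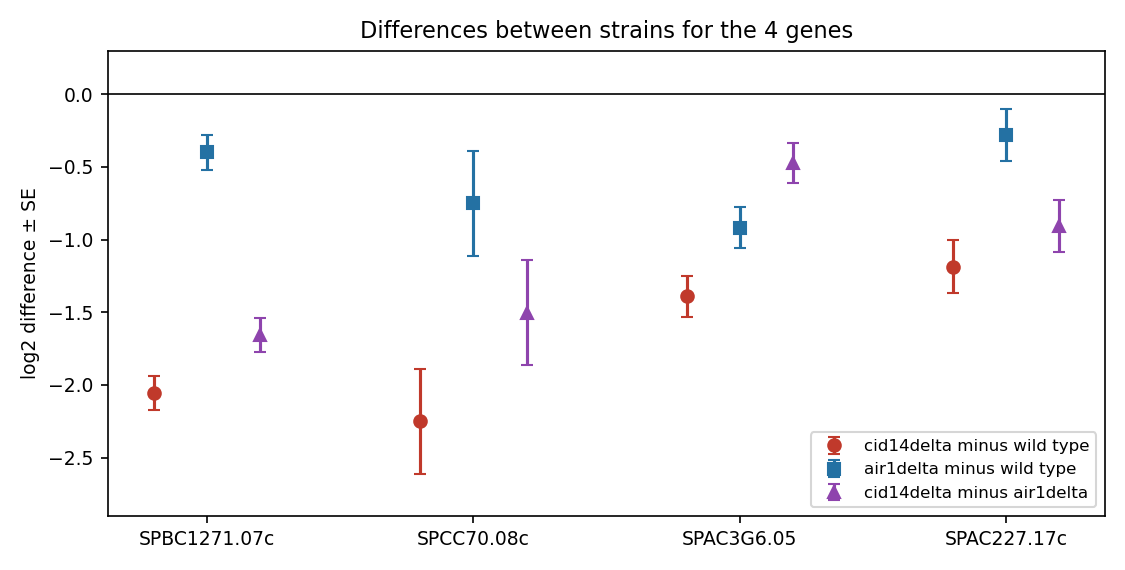
Log2 difference (vertical axis, bars are the standard error of the model) of the 4 genes in cid14delta minus wild type (circles), air1delta minus wild type (squares) and cid14delta minus air1delta (triangles). SPBC1271.07c and SPCC70.08c have cid14delta minus air1delta at -1.66 and -1.50, and SPAC3G6.05 at -0.47.

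Falls of this size were rare. A log2 difference of -1 or lower in cid14delta minus wild type was found for 23 features (0.419% of all), the deleted cid14 and the 4 genes among them. The same size was reached by 0.274% of features in air1delta minus wild type, the deleted air1 among them, and by none of the 4. In cid14delta minus air1delta 0.511% reached it, the deleted cid14, SPBC1271.07c and SPCC70.08c among them. The 4 genes were chosen by these differences, so their place in these counts is a description. Lower in cid14delta by at least 1 than in both other strains were 8 features. Besides SPBC1271.07c and SPCC70.08c these were cid14 itself, aes1 (SPBPB21E7.07), the guanine deaminase gene gud1 (SPCC1672.03c), the M-factor mating pheromone gene mfm2 (SPAC513.03), SPBCPT2R1.06c and the noncoding RNA SPNCRNA.463. The last pair had the standard errors 0.70 and 0.47 and were named after their values were seen. In cid14delta they read 2.90 and 3.02 (SPBCPT2R1.06c) and 2.98 and 3.91 (SPNCRNA.463). These lie below 4.66, the mean signal of the deleted air1 gene in air1delta, as does the wild-type mean of SPNCRNA.463, 4.54.

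**Figure D3:**
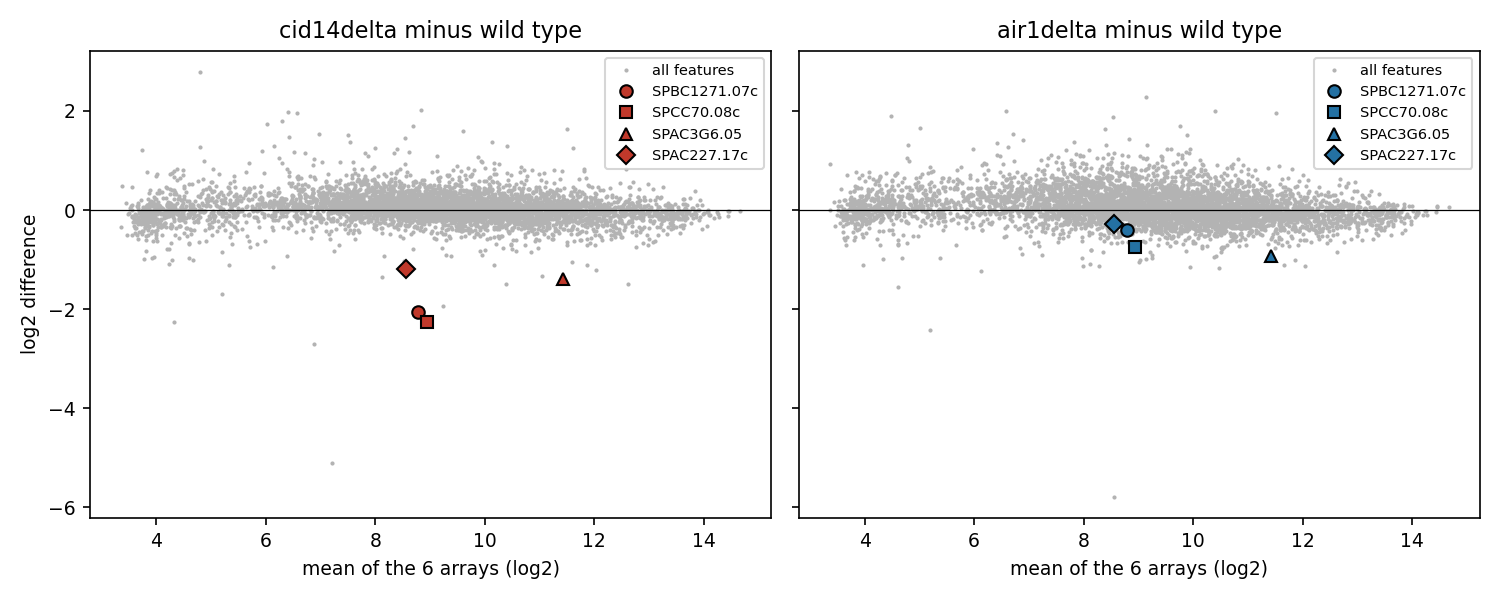
Log2 difference (vertical axis) against the mean of the 6 arrays (horizontal axis, log2) for all 5483 features (grey) and the 4 genes (marked) in cid14delta minus wild type and air1delta minus wild type. The 4 genes lie at -1.19 or lower on the left and between -0.92 and -0.28 on the right.

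The falls were next set beside the genes next door, which the choice of the 4 genes did not use. The 2 features on each side of each gene in the order of the reference annotation gave 16 neighbours, and these were tested with limma across all features. In cid14delta minus wild type 1 neighbour rose, 1 fell and 14 did not pass, with a median of -0.07 and a range of -0.70 to 0.72, where 8.66% of all features passed. Of the 16, mug96, SPNCRNA.304 and SPAC3G6.07 read at or below 4.66 on every array. That is the mean signal of the deleted air1 gene, so a fall might not be seen there. Without these 3, 1 rose, 1 fell and 11 did not pass, with a median of -0.05. In air1delta minus wild type 3 rose, 2 fell and 11 did not pass (8 without those 3), where 26.2% of all features passed. In cid14delta minus air1delta 1 was higher, 2 were lower and 13 did not pass (10 without those 3), where 10% of all features passed. In cid14delta minus wild type the lowest of the 16 was at -0.70. The 4 genes, at -1.19 to -2.25, were chosen by these differences, so setting them beside the neighbours is a description and no test.

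Next to SPBC1271.07c 1 flanking gene also fell in cid14delta. SPBC1271.08c had log2 values of 6.87 and 7.10 in cid14delta, 7.29 and 7.37 in air1delta, and 7.53 and 7.84 in wild type, so its strains stood in the same order. It fell by 0.70 ± 0.13 in cid14delta (limma adjusted p = 0.0377), and its difference in air1delta was -0.36 ± 0.13 (limma adjusted p = 0.0963). That air1delta difference passed after quantile normalization (limma adjusted p = 0.0404). With replicate as a block in 6 arrays, which for air1delta rests on the replicate number alone, it also passed (limma adjusted p = 0.0447). It did not pass with median centring (limma adjusted p = 0.0577) or in the 4 arrays of the 2 strains (limma adjusted p = 0.113). Without wild type replicate 2 it was -0.21. One gene further lies tgp1 (SPBC1271.09), which encodes a glycerophosphodiester transporter of the phosphate response and is known in fission yeast to be silenced by transcription of a noncoding RNA upstream of it. It read 11.04 and 10.86 in cid14delta, 10.32 and 10.16 in air1delta, and 10.36 and 10.11 in wild type. The gene tgp1 rose by 0.72 ± 0.12 against wild type (limma adjusted p = 0.0306) and was higher than in air1delta by 0.71 ± 0.12 (limma adjusted p = 0.031), the opposite direction to SPBC1271.07c. On the other side lie mug96 and the noncoding RNA SPNCRNA.304, both without signal above that of the deleted air1 gene. Same-numbered cid14delta and wild-type arrays carried the same date in the labels, and with that pairing as a block in these 4 arrays both SPBC1271.08c and tgp1 had limma adjusted p = 0.113. Both also lost the call in cid14delta minus wild type without wild type replicate 2, without either cid14delta replicate and without either air1delta replicate (limma adjusted p between 0.0636 and 0.142). The call of tgp1 in cid14delta minus air1delta was lost without any 1 of the 4 mutant arrays (limma adjusted p between 0.101 and 0.144).

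Around SPCC70.08c no neighbour passed in cid14delta. The meiotically upregulated gene mug9 (SPCC70.09c) had 0.51 ± 0.16 in cid14delta (limma adjusted p = 0.11) and rose by 0.66 ± 0.16 in air1delta (limma adjusted p = 0.0371), so the adjoining gene had a positive difference where SPCC70.08c had a negative one. On the other side tmp1 (SPCC70.07c) had -0.19 ± 0.13 in cid14delta and fell by 0.49 ± 0.13 in air1delta (limma adjusted p = 0.0424). In wild type mug9 read 8.93 and 8.42 and tmp1 8.60 and 8.94, so mug9 was lower and tmp1 higher in the replicate in which SPCC70.08c was high. Both air1delta calls were lost without either air1delta replicate and without either cid14delta replicate, and that of tmp1 also without wild type replicate 2 (limma adjusted p between 0.0711 and 0.148). That of mug9 was also lost after quantile normalization (limma adjusted p = 0.0512).

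On one side of SPAC3G6.05 both neighbours rose in air1delta. The gene rnp24 (SPAC3G6.04) read 8.59 and 8.63 in cid14delta, 9.09 and 9.09 in air1delta, and 8.43 and 8.20 in wild type. It rose by 0.78 ± 0.09 in air1delta (limma adjusted p = 0.00871) and had 0.30 ± 0.09 in cid14delta (limma adjusted p = 0.0969). Beyond it ifs1 (SPAC3G6.03c) rose by 0.42 ± 0.08 in air1delta (limma adjusted p = 0.0218) and had -0.04 ± 0.08 in cid14delta. Both were lower in cid14delta than in air1delta, with differences of -0.48 ± 0.09 for rnp24 (limma adjusted p = 0.0376) and -0.46 ± 0.08 for ifs1 (limma adjusted p = 0.0339). The flap endonuclease gene rad2 (SPAC3G6.06c), which acts in DNA replication and repair, had -0.11 ± 0.17 in cid14delta and 0.40 ± 0.17 in air1delta and passed in neither. The call of ifs1 in air1delta was lost without either wild-type replicate and without either air1delta replicate. Those of both genes in cid14delta minus air1delta were lost without any 1 of the mutants' arrays and, at limma adjusted p = 0.0593 for ifs1 and 0.0617 for rnp24, with the replicate number as a block.

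Next to SPAC227.17c both adjoining genes had negative differences in cid14delta that did not pass. The gene psf3 (SPAC227.16c), which encodes a subunit of the GINS complex of the replicative helicase, had -0.40 ± 0.09 (limma adjusted p = 0.0534). The lysine biosynthesis gene lys3 (SPAC227.18) had -0.34 ± 0.07 (limma adjusted p = 0.0527). In air1delta psf3 fell by 0.64 ± 0.09 (limma adjusted p = 0.0115), more than SPAC227.17c itself at -0.28, and lys3 had -0.08 ± 0.07. The call of psf3 was lost without air1delta replicate 1 (limma adjusted p = 0.0514). Both genes did pass in cid14delta with each array centred on its median (limma adjusted p = 0.0349 for each). They also passed with an intensity trend (limma adjusted p = 0.0336 for psf3 and 0.0224 for lys3). With low features left out the limma adjusted p was 0.0466 for psf3 and 0.0458 for lys3. After quantile normalization psf3 passed (limma adjusted p = 0.0496) and lys3 did not (limma adjusted p = 0.111). Neither passed with replicate as a block in 6 arrays (limma adjusted p = 0.0794 for psf3 and 0.082 for lys3). With that block in 4 arrays the limma adjusted p was 0.139 for psf3 and 0.157 for lys3. In the same 4 arrays without a block the limma adjusted p was 0.0747 for psf3 and 0.094 for lys3. The next genes out, reg1 (-0.05) and psr1 (-0.04), had differences within their standard errors.

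**Figure D4:**
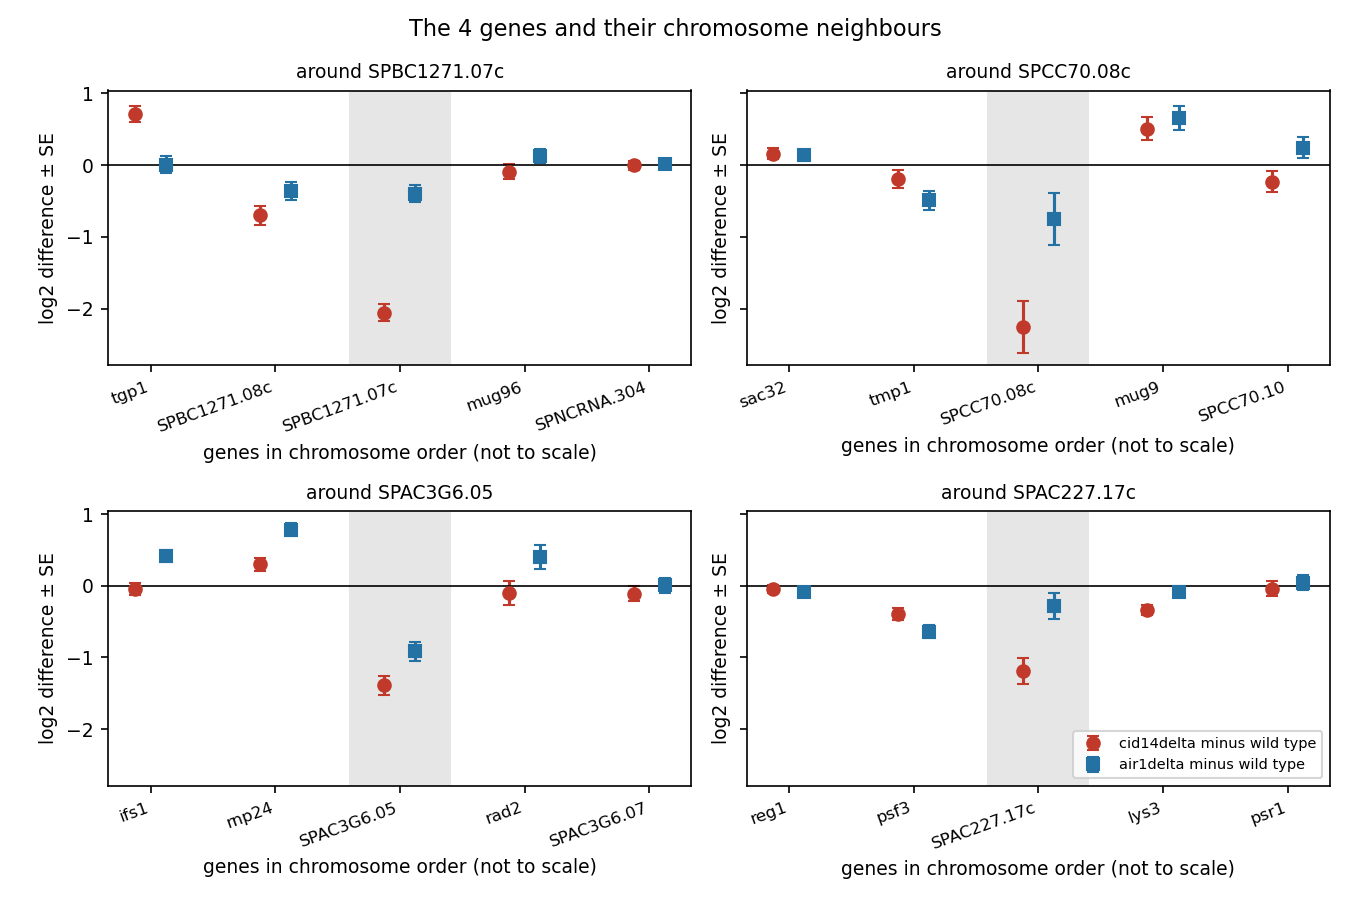
Log2 difference (vertical axis, bars are the standard error of the model) of each of the 4 genes (grey band) and of 2 neighbours on each side in chromosome order, not to scale, in cid14delta minus wild type (circles) and air1delta minus wild type (squares). In cid14delta the neighbours lie between -0.70 and 0.72.

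Features with the most similar pattern were sought among the 131 whose highest and lowest strain means differed by at least 1 on the log2 scale. Likeness was Pearson's r over the 6 arrays of 3 strains, which share strain differences and array effects, so r serves as a description. The guanine deaminase gene gud1 was nearest to SPBC1271.07c at r = 0.996. It was followed by aes1 at 0.984, by the deleted cid14 itself at 0.972 and by SPCC70.08c at 0.956. The log2 values of gud1 were 10.20 and 10.30 in cid14delta, 11.31 and 11.31 in air1delta, and 11.42 and 11.74 in wild type, a step in the same place as that of SPBC1271.07c at a smaller size. Those of aes1 were 5.36 and 5.38 in cid14delta, 7.31 and 7.06 in air1delta, and 7.85 and 8.29 in wild type, with an air1delta minus wild type difference of -0.89 ± 0.16.

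SPCC70.08c was nearest to pas1 (SPAC19E9.03), which encodes a cyclin, at r = 0.966, and then to aes1 (0.966), gud1 (0.957) and SPBC1271.07c (0.956). The log2 values of pas1 were 11.18 and 11.00 in cid14delta, 11.55 and 11.58 in air1delta, and 11.97 and 12.32 in wild type, and its higher wild-type array was replicate 2, as for SPCC70.08c. For SPAC3G6.05 the nearest features were pas1 (r = 0.990), the biotin transporter gene vht1 (SPAC1B3.16c, 0.987), the azetidine-2-carboxylate acetyltransferase gene aca1 (SPAC21E11.04, 0.984) and SPAC11D3.18c (0.981). In vht1 the log2 values were 11.86 and 11.96 in cid14delta, 12.60 and 12.50 in air1delta, and 13.22 and 13.58 in wild type, with air1delta between the other strains. SPAC227.17c was nearest to mfm2 (0.983), then to gud1 (0.943), SPBC1271.07c (0.940) and aes1 (0.926). The log2 values of mfm2 were 4.50 and 4.77 in cid14delta, 5.48 and 5.80 in air1delta, and 5.81 and 5.68 in wild type. Its cid14delta values lie near the 4.66 of the deleted air1 gene, so its difference from the other strains may be understated. They lie above the 3.91 and 3.63 of the deleted cid14 gene on the same arrays. Among the 4 genes r ranged from 0.800 (SPAC3G6.05 with SPAC227.17c) to 0.956 (SPBC1271.07c with SPCC70.08c).

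**Figure D5:**
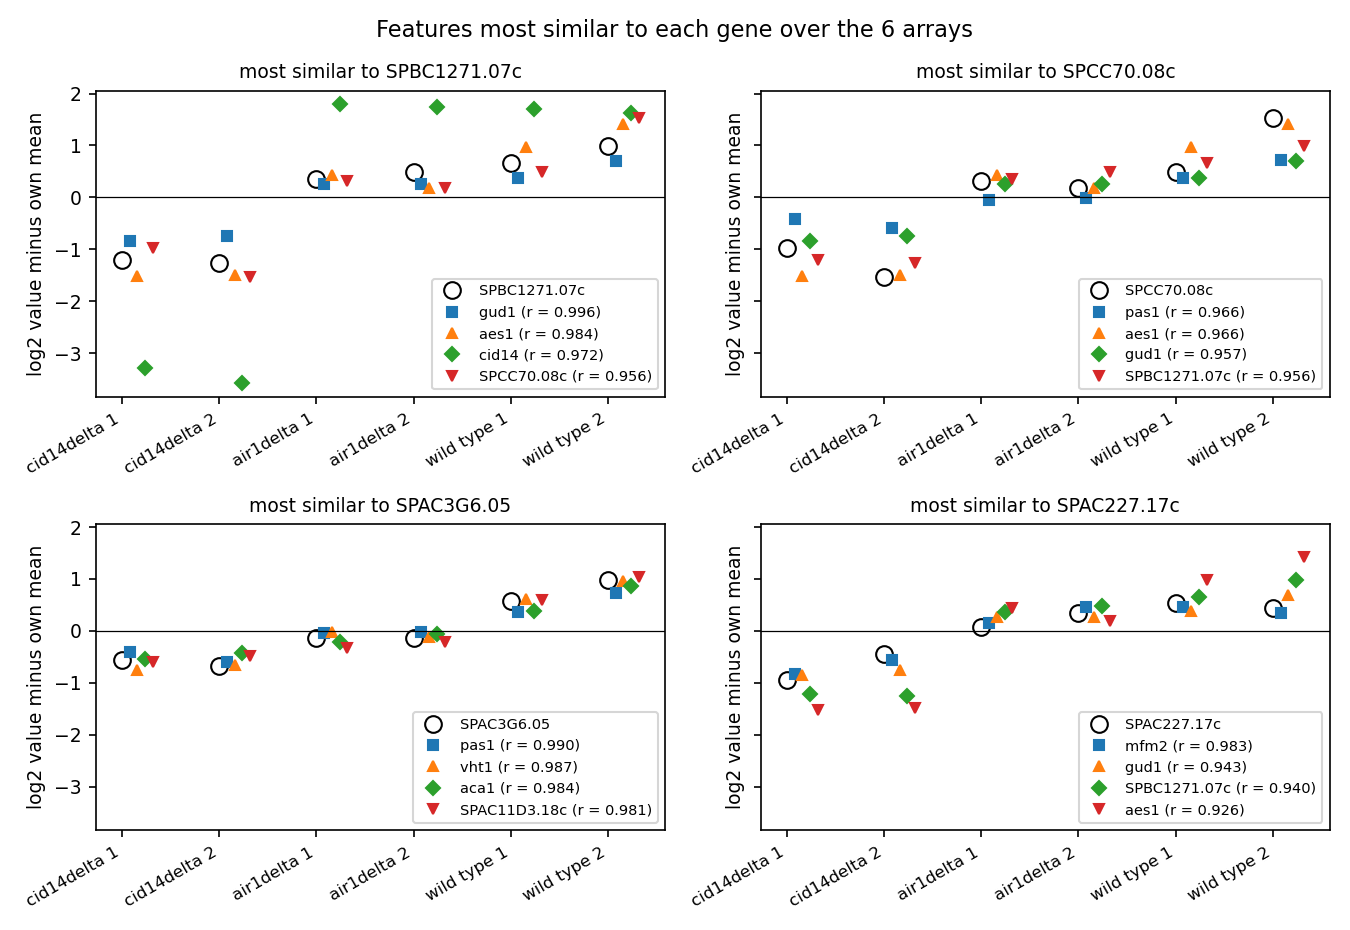
Log2 value minus the feature's own mean over the 6 arrays (vertical axis) for each of the 4 genes (open circles) and its 4 most similar features (filled symbols, with Pearson's r). SPBC1271.07c and gud1 have a step between cid14delta and the other strains, and SPAC3G6.05 and its features have a step at each strain.

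Genes of nitrogen supply and starvation, gud1 and aca1 among them, are set beside the 4 genes. The list of 21 was drawn up with earlier results of these arrays known, so its direction is not independent evidence. In cid14delta minus wild type 0 rose, 8 fell and 13 did not pass, with a median of -0.26 against 0.03 over all features, and 3.88% of all features fell. After gud1, which fell by 1.33 ± 0.11 (limma adjusted p = 0.0114), the NAD-dependent glutamate dehydrogenase gene gdh2 fell by 1.11 ± 0.13 (limma adjusted p = 0.0185). The NADP-dependent enzyme's gene gdh1 fell by 0.75 ± 0.10 (limma adjusted p = 0.0228) and the ammonium transporter gene amt1 by 0.65 ± 0.09 (limma adjusted p = 0.0271). In air1delta minus wild type 1 rose, 9 fell and 11 did not pass, with a median of -0.21 against 0.03 over all features, and 9.72% of all features fell. There gdh2 fell by 1.01 ± 0.13, gdh1 by 0.65 ± 0.10 and amt1 by 0.77 ± 0.09 (limma adjusted p between 0.0094 and 0.0133), while gud1 had -0.27 ± 0.11 (limma adjusted p = 0.134). In cid14delta minus air1delta 0 were higher, 2 were lower and 19 did not pass, where 5.51% of all features were lower. The 8 falls in cid14delta became 2 without wild type replicate 2, 1 without either air1delta replicate, 0 without either cid14delta replicate, 5 with the replicate number as a block in 6 arrays and 0 with that block in 4 arrays. The 9 falls in air1delta became 5 without wild type replicate 2 or either cid14delta replicate and 1 without either air1delta replicate.

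The other lists held genes of the stress response and of nuclear RNA decay. Of 21 core stress genes in cid14delta, the small heat shock protein gene hsp16 rose by 1.37 ± 0.23 (limma adjusted p = 0.0317) and the glutathione S-transferase gene gst2 by 0.80 ± 0.14 (limma adjusted p = 0.0344), 0 fell and 19 did not pass, with a median of 0.14 against 0.03 over all features, where 4.78% of all features rose. In air1delta 4 passed as higher, 0 as lower and 17 did not pass, where 16.4% of all features rose. In cid14delta minus air1delta 0 were higher, 0 were lower and 21 did not pass by limma (2 had an unadjusted p under 0.05), with a median of -0.02. Of 18 TRAMP and exosome genes, the deleted cid14 fell in cid14delta, rrp6 (an exonuclease of the nuclear exosome) rose by 0.39 ± 0.08 (limma adjusted p = 0.0441) and 16 did not pass, where 4.78% of all features rose and 3.88% fell. In air1delta 6 rose, the deleted air1 fell and 11 did not pass, with rrp6 at 0.59 ± 0.08 (limma adjusted p = 0.0115), where 16.4% of all features rose and 9.72% fell. In cid14delta minus air1delta the deleted air1 was the 1 higher gene, the deleted cid14 was 1 of the 2 lower genes and 15 did not pass. The median was -0.13 against -0.02 over all features, where 4.5% of all features were higher and 5.51% lower. The call of rrp6 in cid14delta was lost after quantile normalization (limma adjusted p = 0.0979) and with each array centred on its median (limma adjusted p = 0.0655). In cid14delta the 2 stress genes became 0 with the replicate block in 6 arrays. In air1delta the 4 stress genes became 0 and the 6 TRAMP and exosome genes 1 without air1delta replicate 1, and the 6 became 2 without air1delta replicate 2 and 3 without wild type replicate 2.

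The gene mfm2, nearest in pattern to SPAC227.17c, is a marker of M cells, 1 of the 2 mating types. Of 6 measured M-cell markers in cid14delta the P-factor receptor gene mam2 rose by 0.65 ± 0.07 (limma adjusted p = 0.0157). The gene mfm2 fell (limma adjusted p = 0.0231), with a measured difference of -1.10 ± 0.14 that may be understated. The other 4 did not pass, where 4.78% of all features rose and 3.88% fell. The summed signal of the 6 M-cell markers on the log2 scale lay at 9.82 and 9.94 in cid14delta, 9.76 and 9.92 in air1delta, and 9.82 and 10.01 in wild type, overlapping between strains. Of 6 measured P-cell markers 0 rose, 0 fell and 6 did not pass in cid14delta by limma (2 had an unadjusted p under 0.05). In air1delta 3 fell and 3 did not pass, where 9.72% of all features fell. Those 3 became 1 without wild type replicate 2 or air1delta replicate 1 and 0 without air1delta replicate 2. The summed signal of the 6 P-cell markers was 12.30 and 12.33 in cid14delta, 12.12 and 12.11 in air1delta, and 12.44 and 12.53 in wild type. The sum was thus lower in both mutants, but it is weighted to the strongest genes. In wild type sxa1 alone read 11.84 and 11.89, while map1, map3 and map4 read between 6.10 and 8.14. The difference of sxa1 was -0.24 ± 0.06 in cid14delta and -0.39 ± 0.06 in air1delta. Of the 9 named list genes that passed in cid14delta minus wild type (gud1, gdh2, gdh1, amt1, hsp16, gst2, rrp6, mam2 and mfm2), none did so with the replicate block in 4 arrays or without either cid14delta replicate (limma adjusted p between 0.0932 and 0.212). The part of mating type in the values of the 4 genes was not tested.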

How the data were processed

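The authors deposited 1 table with a log2 value for each of 5483 features on each of 6 tiling arrays. That these are log2 values follows from their range, 2.75 to 14.8, and is not stated. The submitters' processing notes name affy, an R package for such arrays, without version or role. How the authors corrected background, normalized and summarised probes, and on which build, is not given in the sources, so coordinates are left out. IDs were matched to a RefSeq gene table (ASM294v3), 5337 by locus tag and 11 by an unambiguous synonym, while 135 did not match. It served for names and gene order only.

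All 6 arrays entered 1 linear model of strain, without covariates, in limma 3.58.1 in R 4.3.3 (3 residual and 2.51 prior degrees of freedom). Tests were two-sided, adjusted by Benjamini-Hochberg over all features and called at an adjusted p under 0.05. The fit was tested on simulated data.

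The 4 genes, the lists and the tests were chosen with earlier results of these data known. The naming rule took the 4 genes, the deleted genes, the 2 nearest genes with a feature on each side of each gene, the 4 features of highest r per gene, and up to 4 genes of each list with the smallest p in cid14delta minus wild type. Lists by product text, related proteins, promoters and sequences were not used here.

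Per the labels, same-numbered cid14delta and wild-type arrays carried the same date, taken as the pairing. Across features, the departures from the strain mean of arrays with one number had r = -0.0063 for cid14delta and wild type, 0.0413 for air1delta and wild type and 0.0159 for the mutants. With the replicate number as a block the count of called features was 179 in 6 arrays and 1 in the 4 arrays of cid14delta and wild type, against 475 without a block. For the air1delta arrays that block rests on the replicate number alone. Alternatives were quantile normalization, median centring, the block, the 4 arrays of 2 strains, an intensity trend, a filter on low features and leaving out each array.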

Additional observations from a re-analysis of the deposited data

How the results depend on the processing

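Of 124 recomputed differences of the 4 genes all were negative, and 108 moved by less than 1 residual standard deviation. The other 16 came from leaving out 1 array. Many of the 108 could not move. A block, a fit on the 4 arrays compared, or leaving out an array of the strain not compared returns the same difference. The genes were also chosen by these differences, so the shared sign is a description only. Leaving out each array in turn, cid14delta minus wild type ranged from -2.22 to -1.89 for SPBC1271.07c, -2.77 to -1.73 for SPCC70.08c, -1.59 to -1.19 for SPAC3G6.05 and -1.43 to -0.94 for SPAC227.17c. Air1delta minus wild type ranged from -0.56 to -0.23, -1.27 to -0.23, -1.12 to -0.71 and -0.41 to -0.15 for the same genes. Cid14delta minus air1delta ranged from -1.72 to -1.60, -1.78 to -1.22, -0.53 to -0.41 and -1.16 to -0.66. The replicate block left these differences as they were and changed their standard errors.

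Counts of called features depended on the arrays pooled. In cid14delta minus wild type the 475 became 69 in the 4 arrays of both strains, 179 with the replicate block in 6 arrays and 1 with the replicate block in 4 arrays, with 1 to 338 when an array was left out. The 1434 in air1delta minus wild type became 870 in 4 arrays and 273 to 952 without 1 array, and the 549 in cid14delta minus air1delta became 72 with the replicate block in 6 arrays and 2 to 488 without 1 array. Median centring turned 262 higher and 213 lower in cid14delta into 190 and 355, and 901 and 533 in air1delta into 640 and 826; quantile normalization gave 616 and 662 there. Median centring takes off each array's median, which was higher on the mutant arrays, and so lowers every mutant minus wild type difference. The cause of the higher medians was not tested. By root mean square difference in place of r, SPAC227.17c kept 2 of its 4 nearest features and the other genes 3 or 4. Alternatives for related proteins and promoter motifs were not run.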

Other observations

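The 10 features with the largest rise in wild type replicate 2 over replicate 1 were frp1, shu1, str3, SPNCRNA.79, hry1, frp2, ddr48, fio1, fta6 and SPAC9E9.17c, chosen after their values were seen. The values of the 5 of them known from iron or heme uptake follow, and no list of iron genes was counted. The ferric reductase gene frp1 (SPBC1683.09c) read 7.70 and 10.58 in the wild-type replicates, and the heme uptake gene shu1 (SPAC1F8.02c) 3.79 and 6.39. The transporter gene str3 (SPAC1F8.03c) read 8.92 and 11.49, and the ferric reductase gene frp2 (SPBC947.05c) 7.14 and 8.89. The ferroxidase gene fio1 (SPAC1F7.08) read 10.01 and 9.37 in cid14delta, 10.32 and 10.20 in air1delta, and 10.37 and 12.02 in wild type, and by root mean square difference it was among the 4 features nearest to SPCC70.08c. A gap of at least 1 between replicates was found for 18 features in cid14delta, 29 in air1delta and 47 in wild type, and 30 of the wild-type features were higher in replicate 2. By that gap (replicate 2 minus replicate 1, largest first) SPCC70.08c was at rank 29 of all features, SPAC3G6.05 at 206, SPBC1271.07c at 298 and SPAC227.17c, which was lower in replicate 2, at 3917. The part of iron supply in the values of SPCC70.08c was not tested.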
